A study of Mus musculus with 6 samples.

Results

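The liver enzymes followed here are Hal, Uroc1, Amdhd1 and Ftcd, which break histidine down to glutamate, and Aldh1l1, Aldh1l2, Mthfd1 and Shmt1, which handle the folate units that this breakdown feeds. They are 8 genes chosen by name of the 48432 genes in the deposited table, were matched by symbol, and were compared between livers without and with Klf15, a Kruppel-like transcription factor of hepatocytes. The Li-KO group is a liver-specific knockout of Klf15 and the Ctl group carries the Albumin-Cre transgene, which drives Cre recombinase in hepatocytes from the albumin promoter. Both groups were mice of 10 weeks with 3 libraries each, numbered 0, 1 and 2. The sources used here do not name the Cre line of the Li-KO mice, the exon removed, the sex or the feeding state. They do not say that each library is a separate mouse either, so the p-values reflect only how these libraries vary. In whole liver, fewer cells of a type and less RNA per cell cannot be told apart.

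Hepatocytes degrade histidine step by step in the cytosol. Histidine ammonia-lyase (Hal) makes urocanate, urocanase (Uroc1) and imidazolonepropionase (Amdhd1) turn it into formiminoglutamate, and formimidoyltransferase cyclodeaminase (Ftcd) passes the formimino group to tetrahydrofolate and releases glutamate. Mthfd1 interconverts the cytosolic folate forms, Shmt1 loads serine carbon onto tetrahydrofolate, and Aldh1l1 oxidises the formyl group to carbon dioxide and returns tetrahydrofolate, with Aldh1l2 as its mitochondrial relative.

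The last steps of histidine breakdown, Amdhd1 and Ftcd, were higher in Li-KO liver, the formyl-folate oxidase Aldh1l1 was lower, and the first step, Hal, showed no detectable difference. Of the 8 enzymes, 2 were higher (Ftcd and Amdhd1) and 1 was lower (Aldh1l1) at an adjusted p under 0.05 by the quasi-likelihood test of edgeR. Among the 16533 genes tested, 6.11% were higher, 5.90% were lower and 12.0% passed in either direction. All 8 enzymes passed the filter on low counts. Their log2 fold changes, Li-KO minus Ctl, ran from -0.62 to 1.25 with a median of 0.15, against -0.01 for all genes tested; without Li-KO replicate 1 or Ctl replicate 0 the median of the 8 was 0.31 and 0.29. The Li-KO and Ctl values did not overlap in 4 of the 8, Ftcd, Amdhd1, Aldh1l1 and Shmt1, where this held for 35.2% of all genes tested. Levels below are counts scaled to library size (CPM) when genotypes are compared and FPKM, which is also divided by gene length, when genes are compared.

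The targeted gene, Klf15, was at 54.3, 41.6 and 51.8 CPM in Li-KO replicates 0, 1 and 2, against 345, 174 and 196 CPM in Ctl replicates 0, 1 and 2. Its log2 fold change was -2.28 ± 0.26 (SE) with an edgeR adjusted p of 0.00275. Fragments from every exon are counted, so these values do not show how much of the remaining signal comes from the deleted allele.

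**Figure D1:**
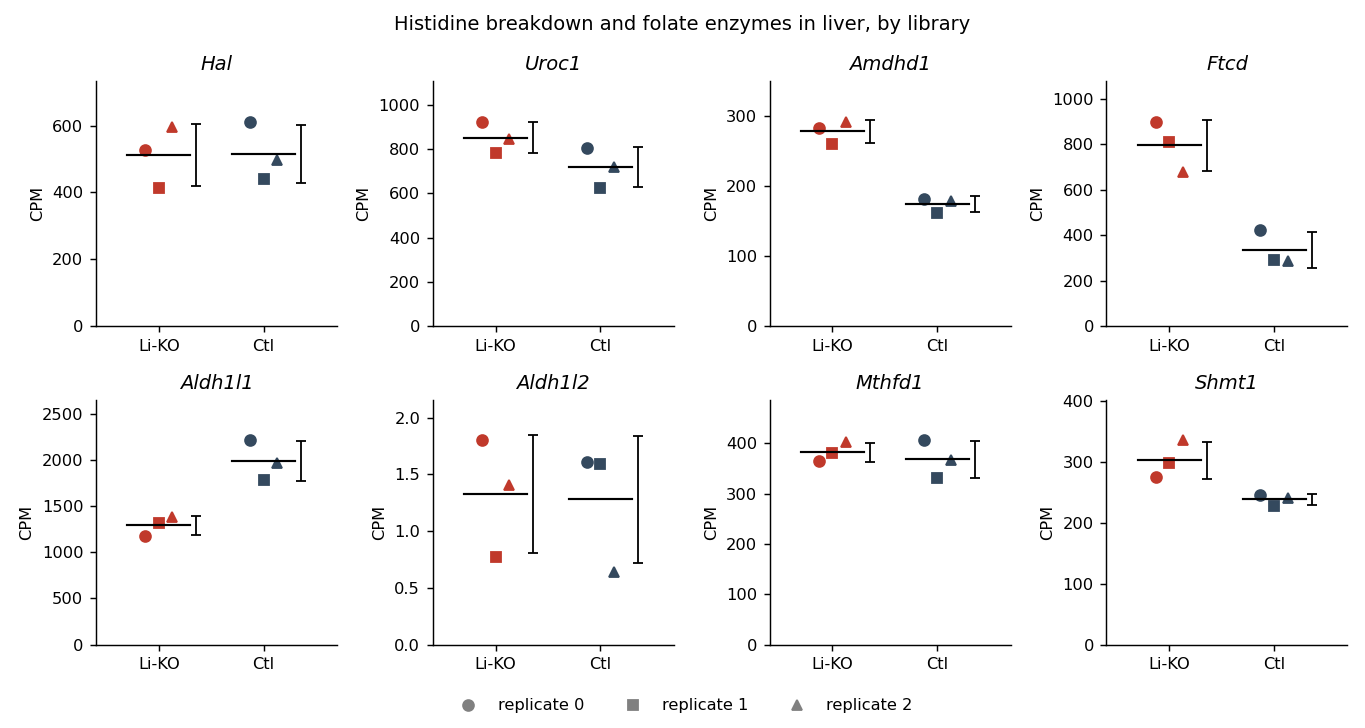
Each panel gives the CPM (y axis, from 0) of 1 enzyme in the 3 Li-KO libraries (left, red) and the 3 Ctl libraries (right, dark blue), with the marker shape for the replicate number, a line at the group mean and a bar of ± 1 SD. The Li-KO points lie above all Ctl points for Amdhd1, Ftcd and Shmt1 and below them for Aldh1l1, and the groups overlap in the other panels.

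Ftcd (ENSMUSG00000001155.13, chromosome 10, 76575648 to 76590338, plus strand, mm10), the step that hands histidine carbon to folate, had 898, 809 and 676 CPM in Li-KO, against 424, 291 and 288 CPM in Ctl. The lowest Li-KO library lay well above the highest Ctl library, which was Ctl replicate 0. The log2 fold change was 1.25 ± 0.19 (SE), 2.38 times the Ctl level (95% interval 1.75 to 3.23), and the edgeR adjusted p was 0.00848. The call held without each library in turn, with a log2 fold change of 1.15 to 1.45.

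Amdhd1 (ENSMUSG00000015890.2, chromosome 10, 93523338 to 93540033, minus strand), which opens the imidazolone ring, had 283, 260 and 292 CPM in Li-KO, against 182, 161 and 179 CPM in Ctl. Both groups were tight and did not overlap. The log2 fold change was 0.68 ± 0.12 (SE), 1.60 times the Ctl level (interval 1.33 to 1.93), and the edgeR adjusted p was 0.0120. Without Ctl replicate 1 the log2 fold change was 0.64 and the adjusted p 0.0590.

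Hal (ENSMUSG00000020017.14, chromosome 10, 93488768 to 93519304, plus strand), the entry step, had 528, 412 and 595 CPM in Li-KO, against 611, 440 and 496 CPM in Ctl. The groups overlapped along almost their whole range. The log2 fold change was -0.01 ± 0.18 (SE, edgeR adjusted p = 0.974), with an interval of the ratio from 0.743 to 1.32, so smaller changes in either direction were not detectable with these libraries. Hal lies tail to tail with Amdhd1 on chromosome 10, with 4033 bases between their annotated ends.

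Uroc1 (ENSMUSG00000034456.15, chromosome 6, 90333284 to 90364551, plus strand), which hydrates urocanate, had 923, 783 and 846 CPM in Li-KO, against 806, 625 and 721 CPM in Ctl. Only Ctl replicate 0 reached into the Li-KO range. The log2 fold change was 0.25 ± 0.15 (SE) with an interval of -0.09 to 0.58, and the edgeR adjusted p was 0.312.

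Aldh1l1 (ENSMUSG00000030088.15, chromosome 6, 90486427 to 90600203, plus strand), the cytosolic formyltetrahydrofolate dehydrogenase and by counts the most abundant of the 8, had 1181, 1315 and 1384 CPM in Li-KO, against 2214, 1789 and 1969 CPM in Ctl. Each Li-KO library was below each Ctl library. The log2 fold change was -0.62 ± 0.15 (SE), 0.650 times the Ctl level (interval 0.509 to 0.829), and the edgeR adjusted p was 0.0365. The direction held without each library, with log2 fold changes of -0.68 to -0.54, but the call ended without Ctl replicate 0, 1 or 2 and without Li-KO replicate 0 or 1, with adjusted p of 0.0765, 0.0807, 0.0991, 0.0825 and 0.133. It also ended on the FPKM values, where limma gave adjusted p of 0.0569 to 0.0888.

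Aldh1l2 (ENSMUSG00000020256.14, chromosome 10, 83487450 to 83534140, minus strand), the mitochondrial form, was barely detected, with 56, 24 and 58 counts in Li-KO and 67, 59 and 24 counts in Ctl. Its log2 fold change was 0.06 ± 0.48 (SE, edgeR adjusted p = 0.953), and the interval of -1.04 to 1.15 allows a change of more than 2-fold either way. It shares 14.1% of its exonic bases with D10Wsu102e on the other strand, and the sources used here do not state whether counting used strand. D10Wsu102e was at 33.7 ± 2.89 CPM in Li-KO and 31.2 ± 4.30 CPM in Ctl (SD, n = 3 each), so the few Aldh1l2 fragments cannot be told apart from stray fragments of that gene.

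Mthfd1 (ENSMUSG00000021048.6, chromosome 12, 76255298 to 76319803, plus strand) had 365, 380 and 402 CPM in Li-KO, against 406, 331 and 367 CPM in Ctl. The groups overlapped, and the log2 fold change was 0.06 ± 0.13 (SE, edgeR adjusted p = 0.813) with an interval of -0.24 to 0.35. Shmt1 (ENSMUSG00000020534.14, chromosome 11, 60788104 to 60811718, minus strand) had 275, 298 and 335 CPM in Li-KO, against 246, 228 and 241 CPM in Ctl. All 3 Li-KO libraries lay above the Ctl libraries, and the log2 fold change was 0.35 ± 0.12 (SE), but the edgeR adjusted p of 0.102 did not pass.

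Per length, the order of the 8 enzymes differed between the genotypes at its top. In Li-KO liver Ftcd was first with 341 ± 31.7 FPKM and Aldh1l1 next with 300 ± 31.3 FPKM (SD, n = 3), and their ranges overlapped. In Ctl liver Aldh1l1 stood alone at 467 ± 56.0 FPKM, above Uroc1 at 154 ± 20.6 FPKM and Ftcd at 152 ± 32.8 FPKM, which overlapped each other. Uroc1 came next in Li-KO at 178 ± 13.3 FPKM, apart from its neighbours in the order. Amdhd1, at 87.3 ± 3.86 FPKM in Li-KO and 55.8 ± 4.07 FPKM in Ctl, ranked 4 in Li-KO and 7 in Ctl. In Li-KO it overlapped with Mthfd1, at 81.9 ± 4.37 FPKM, which overlapped with Shmt1, at 77.2 ± 7.52 FPKM, and Shmt1 overlapped with Hal, at 69.2 ± 12.1 FPKM. In Ctl, Mthfd1 at 79.3 ± 8.43 FPKM, Hal at 71.1 ± 12.8 FPKM and Shmt1 at 62.4 ± 2.15 FPKM overlapped in the same chain, and Amdhd1 lay below them. Aldh1l2 was last in both, at 0.198 ± 0.106 FPKM in Li-KO and 0.157 ± 0.0642 FPKM in Ctl.

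**Figure D2:**
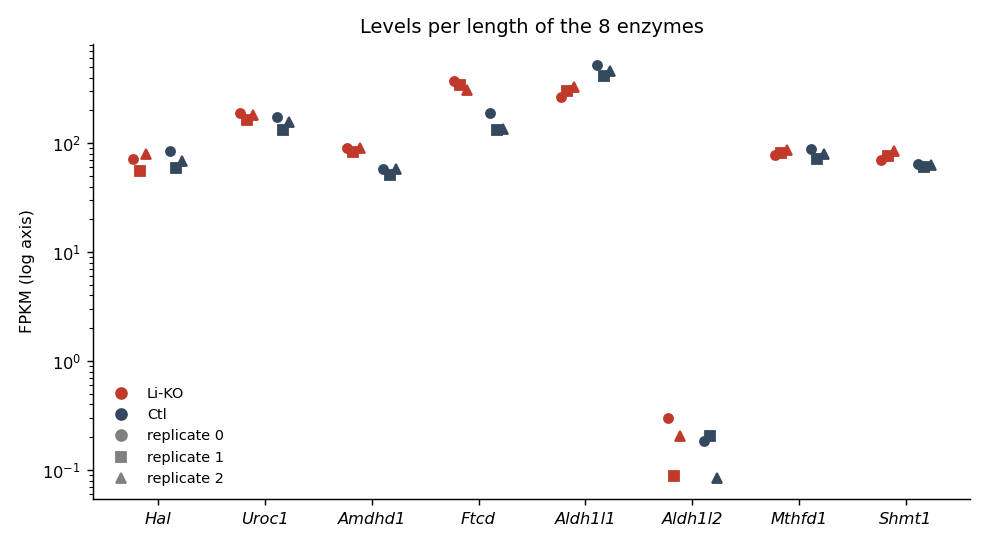
FPKM on a log axis (y) of the 8 enzymes (x) in each Li-KO library (red, left of each pair) and each Ctl library (dark blue, right), with the marker shape for the replicate number. Ftcd and Aldh1l1 have similar levels in Li-KO and are well apart in Ctl, and Aldh1l2 lies far below the other enzymes.

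Libraries of a group also differed together. Within Ctl, replicate 0 had the highest CPM for all 8 enzymes and for Klf15, and replicate 1 had the lowest CPM for 6 of the 8. In FPKM, Ctl replicate 0 was highest for 6 of the 8, while Aldh1l2 was highest in replicate 1 and Amdhd1 in replicate 2. Ctl replicate 0 also stood apart in hepatocyte genes outside the 8, in both directions. Ctl replicates 0, 1 and 2 had 6477, 1815 and 2643 CPM for Tat and 6436, 1840 and 2963 CPM for Pck1. They had 695, 1561 and 1419 CPM for Glul and 3661, 5867 and 5519 CPM for Fabp1. Within Li-KO, replicate 2 was highest for 5 enzymes and replicate 1 for none. The spread of FPKM within a group was widest for Aldh1l2, with a coefficient of variation of 53.6% in Li-KO and 40.9% in Ctl, and, among the well detected enzymes, for Hal in Li-KO (17.5%) and Ftcd in Ctl (21.6%).

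Ratios within a library do not depend on how libraries are scaled, so Uroc1, Amdhd1 and Ftcd were each also set against the step before them in FPKM. The Ftcd level was 4.16, 4.14 and 3.44 times that of Amdhd1 in Li-KO, against 3.27, 2.57 and 2.31 times in Ctl. The Amdhd1 level was 0.471, 0.506 and 0.493 times that of Uroc1 in Li-KO, against 0.334, 0.386 and 0.375 times in Ctl. The Uroc1 level was 2.64, 2.93 and 2.28 times that of Hal in Li-KO, against 2.05, 2.22 and 2.27 times in Ctl. The lowest Li-KO ratio of Uroc1 to Hal was barely above the highest Ctl ratio. Along the pathway, each step stood higher over the step before it in Li-KO, by 0.26 (Uroc1 over Hal), 0.43 (Amdhd1 over Uroc1) and 0.54 (Ftcd over Amdhd1) on the log2 scale. The differences largely restate the fold changes of the single enzymes above, so they are no separate support, and neither Hal nor Uroc1 passed. Without a library these differences were 0.17 to 0.36, 0.36 to 0.47 and 0.43 to 0.68, and the lowest for Uroc1 over Hal came without Li-KO replicate 1.

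Of the 6 ratios, that of Aldh1l1 to Ftcd differed most, and it sets the lowest log2 fold change of the 8 enzymes against the highest. The Aldh1l1 level was 0.722, 0.877 and 1.07 times that of Ftcd in Li-KO, against 2.77, 3.15 and 3.41 times in Ctl, a log2 difference of -1.82 (-1.96 to -1.68 without a library). Against the same Ftcd values, the log2 ratio of Mthfd1 was -2.06 ± 0.21 in Li-KO and -0.92 ± 0.17 in Ctl (SD, n = 3 each), and that of Shmt1 was -2.14 ± 0.28 in Li-KO and -1.26 ± 0.27 in Ctl. The ratios to Ftcd also largely restate the fold changes of the single enzymes, so they are no separate support. The 6 ratios were chosen after the levels were seen, and they share enzymes. Each gave a two-sided exact permutation p of 0.10, also after Benjamini-Hochberg adjustment over the 6, which is the smallest that 3 against 3 libraries allow. With counts per exonic base in place of FPKM, Uroc1 over Hal and Ftcd over Amdhd1 overlapped between the groups in the exact permutation test (p = 0.200 for each, differences of 0.27 and 0.58).

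**Figure D3:**
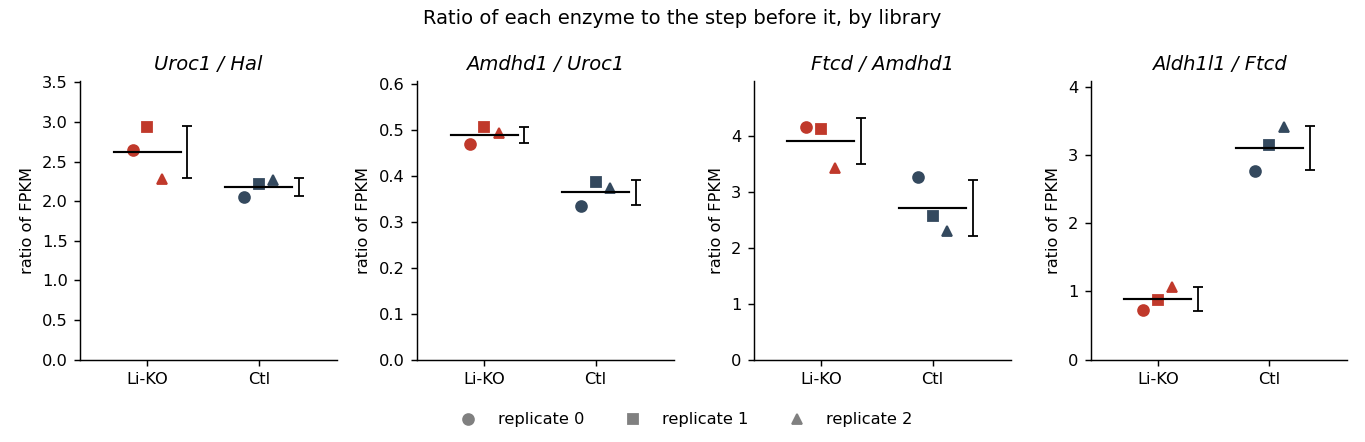
Ratio of the FPKM of an enzyme to that of another (y axis, from 0) in the 3 Li-KO libraries (left, red) and the 3 Ctl libraries (right, dark blue), with a line at the mean and a bar of ± 1 SD. The histidine panels set an enzyme against the step before it, while Aldh1l1 and Ftcd are not consecutive steps. The Aldh1l1 over Ftcd panel shows Li-KO at 0.722 to 1.07 and Ctl at 2.77 to 3.41, the widest separation of the 4 panels.

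The promoters of the 3 enzymes that passed are shown because Klf15 belongs to a factor family that binds CACCC boxes and GC-rich relatives of them. The sequences are the 250 bases before the RefSeq start (RefSeq, build GRCm38.p6), 5′ to 3′ on the strand of the gene, and capitals mark CACCC or its reverse complement GGGTG, searched on both strands. The windows are chr10:76575398-76575647 for Ftcd (plus strand), chr10:93540034-93540283 for Amdhd1 (minus strand) and chr6:90550543-90550792 for Aldh1l1 (plus strand).
Ftcd: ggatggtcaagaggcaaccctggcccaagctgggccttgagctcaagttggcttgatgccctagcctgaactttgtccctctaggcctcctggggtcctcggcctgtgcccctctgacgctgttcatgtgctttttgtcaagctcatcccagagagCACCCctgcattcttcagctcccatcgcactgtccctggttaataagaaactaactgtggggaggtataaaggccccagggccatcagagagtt
Amdhd1: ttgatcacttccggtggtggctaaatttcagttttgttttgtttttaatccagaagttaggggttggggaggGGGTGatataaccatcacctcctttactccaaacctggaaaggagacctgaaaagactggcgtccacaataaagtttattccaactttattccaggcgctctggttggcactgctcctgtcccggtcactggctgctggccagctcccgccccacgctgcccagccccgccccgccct
Aldh1l1: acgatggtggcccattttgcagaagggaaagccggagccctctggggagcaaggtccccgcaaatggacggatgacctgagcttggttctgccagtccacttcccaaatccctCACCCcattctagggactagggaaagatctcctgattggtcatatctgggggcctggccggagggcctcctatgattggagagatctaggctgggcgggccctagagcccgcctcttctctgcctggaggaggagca
Each window holds 1 match to CACCC or GGGTG. It begins 94 bases before the start in Ftcd, 178 bases before it in Amdhd1, where it reads GGGTG, and 137 bases before it in Aldh1l1. The GC-rich relatives were not searched for, so the counts of matches do not cover them.

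The same windows of Hal and Shmt1, which did not pass, hold 1 match each, that of Uroc1 holds 3 and that of Mthfd1 holds 0. Matches were thus in 6 of the 7 windows found, against 52.0% of 32851 promoters of the same length, and 6.92% of those hold 3 or more. The start used for Aldh1l1 lies inside the annotated gene, at 90550793, while the annotated gene begins at 90486427.

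Aldh1l1 and Uroc1 lie beside the targeted gene. By its annotated left end, at 90486427, Aldh1l1 begins 11.2 kb after the end of Klf15 on the same strand. The RefSeq start of Aldh1l1 used above, at 90550793, lies further from Klf15. Uroc1 ends 98.0 kb before Klf15. Of 18 protein-coding genes other than Klf15 within 0.5 Mb of it, 8 were tested, with Aldh1l1 and Uroc1 among them. By edgeR 4 of these passed, 2 higher (Slc41a3 and Chst13) and 2 lower (Aldh1l1 itself and Iqsec1), where 12.0% of all genes tested passed. Slc41a3, a magnesium carrier gene that follows Aldh1l1, had 35.2, 23.5 and 17.2 CPM in Li-KO, against 4.74, 1.99 and 2.68 CPM in Ctl. It rose 8.02-fold, with a 95% interval of 4.46 to 14.4 (edgeR adjusted p = 0.00381), and did not overlap between the groups.

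Chst13, a chondroitin sulfotransferase gene that precedes Uroc1, also rose, to 17.1 ± 1.71 CPM in Li-KO, against 7.73 ± 0.862 CPM in Ctl (SD, n = 3 each, edgeR adjusted p = 0.00606). Iqsec1, beyond Slc41a3, fell to 53.8 ± 8.14 CPM in Li-KO, against 84.1 ± 14.8 CPM in Ctl (SD, n = 3 each, edgeR adjusted p = 0.0395), and that call held without Li-KO replicate 0 but ended without each of the other libraries (adjusted p up to 0.159). It also ended with library totals in place of TMM (edgeR adjusted p = 0.0517) and on FPKM (limma adjusted p = 0.0645 to 0.0960). Zxdc, between Uroc1 and Klf15, was at 32.9 ± 3.21 CPM in Li-KO and 32.6 ± 4.93 CPM in Ctl (edgeR adjusted p = 0.966). Cfap100 was at 3.24 ± 1.25 CPM in Li-KO and 1.72 ± 1.65 CPM in Ctl, and the pheromone receptor gene Vmn1r53 at 1.53 ± 0.746 CPM in Li-KO and 0.205 ± 0.335 CPM in Ctl (SD, n = 3 each, edgeR adjusted p = 0.405 for Cfap100 and 0.117 for Vmn1r53). Vmn1r53 rested on few counts: it passed with DESeq2 (adjusted p = 0.0269), with limma-voom (adjusted p = 0.0397) and without Ctl replicate 1 (edgeR adjusted p = 0.0256). Its log2 fold change of 2.90 became 6.60 without that library and 0.87 with limma on log2(FPKM + 1).

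Between Klf15 and the RefSeq start of Aldh1l1, 3 genes not annotated as protein-coding, chosen after their values were seen, were higher in Li-KO. Within 0.5 Mb of Klf15, 7 genes of such types (long non-coding RNAs, pseudogenes and transcripts still to be established) were tested, and these 3 passed by edgeR, where 6.11% of all genes tested were higher. Gm44421 (chromosome 6, 90478466 to 90479686, plus strand) had 1130, 969 and 1133 counts in Li-KO, against 615, 390 and 364 counts in Ctl (log2 fold change 1.44, edgeR adjusted p = 0.00492). Gm45901 (chromosome 6, 90486393 to 90519480, plus strand) had 130, 94 and 106 counts in Li-KO, against 7, 1 and 2 counts in Ctl (edgeR adjusted p = 0.00214). Gm44236, annotated as still to be established (chromosome 6, 90513302 to 90513814, plus strand), had 291, 117 and 169 counts in Li-KO, against 16, 18 and 40 counts in Ctl (edgeR adjusted p = 0.010). Aldh1l1 shares 13.4% of its exonic bases with Gm45901 and the antisense gene Gm15756. Aldh1l1 itself had 36654 to 56933 counts in Li-KO and 66471 to 92395 counts in Ctl. Gm15756, with 12, 3 and 1 counts in Li-KO and 1, 0 and 0 counts in Ctl, was too low to be tested. The part of fragments from these overlapping genes in the Aldh1l1 values was not tested. Effects of the altered locus on its neighbours and of the loss of Klf15 cannot be told apart in these groups.

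**Figure D4:**
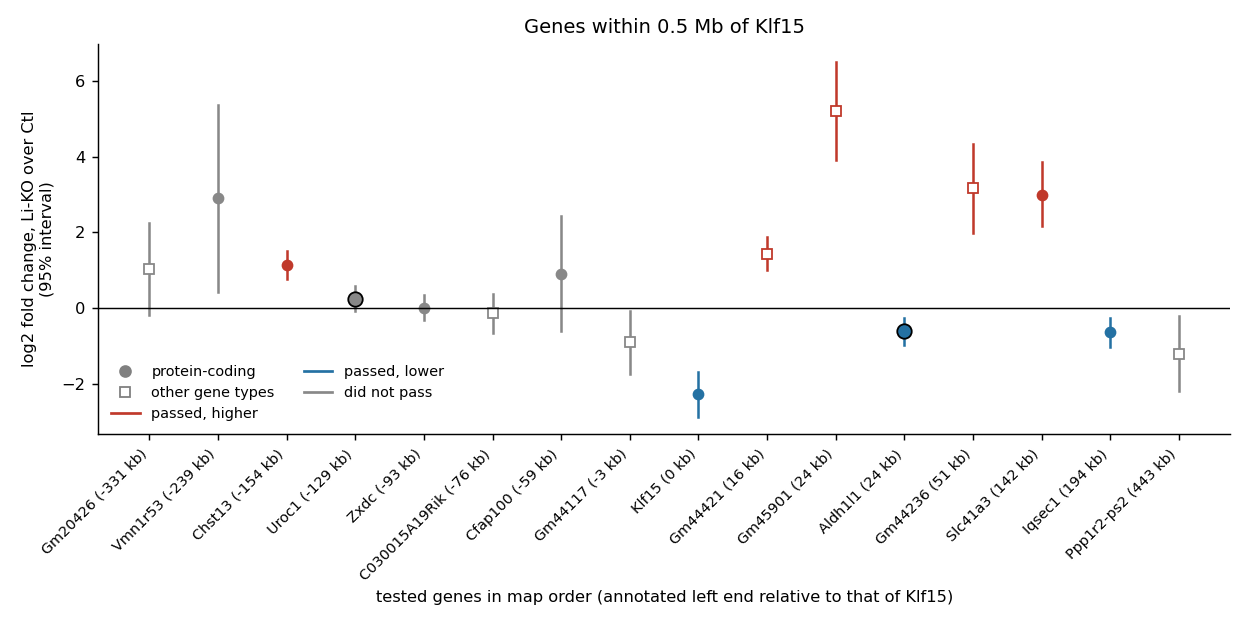
Log2 fold change of Li-KO over Ctl with its 95% interval (y) for the tested genes within 0.5 Mb of Klf15, in map order with the distance of each annotated left end from that of Klf15 (x). Circles are protein-coding genes, open squares other gene types, and Uroc1 and Aldh1l1 have a black edge; Aldh1l1 at -0.62 sits between Gm45901 at 5.21 and Gm44236 at 3.16.

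Of 27 other folate genes, 25 were tested, and by edgeR 2 were higher and 1 was lower, together 12.0%, against 12.0% of all genes tested. Fpgs, which adds the glutamate tail that keeps folates in the cell, rose to 173 ± 5.66 CPM in Li-KO, against 121 ± 9.41 CPM in Ctl (adjusted p = 0.0239). Shmt2, the mitochondrial partner of Shmt1, rose to 310 ± 25.8 CPM in Li-KO, against 216 ± 9.50 CPM in Ctl (SD, n = 3 each, edgeR adjusted p = 0.0294). The calls of Fpgs and Shmt2 ended without Li-KO replicate 1 or any Ctl replicate, with edgeR adjusted p up to 0.0939 for Fpgs and 0.124 for Shmt2.

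Sardh, the sarcosine dehydrogenase of mitochondria that donates a carbon unit to folate, was the folate gene that fell. It had 526, 486 and 494 CPM in Li-KO, against 1392, 1269 and 1242 CPM in Ctl, with a log2 fold change of -1.37 ± 0.13 (SE) and an edgeR adjusted p of 0.00117. That is lower in every Li-KO library than in any Ctl library, and the call held without each library.

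The other folate genes named did not pass. Mthfs, which recovers formyl-folate, was at 5.46 ± 2.40 CPM in Li-KO and 5.65 ± 0.746 CPM in Ctl (SD, n = 3 each, edgeR adjusted p = 0.941). The mitochondrial enzyme Mthfd2 was low, at 2.71 ± 1.61 CPM in Li-KO and 2.01 ± 0.311 CPM in Ctl (SD, n = 3 each). Mthfd1l, also mitochondrial, was at 14.8 ± 11.0 CPM in Li-KO and 12.2 ± 7.01 CPM in Ctl (SD, n = 3 each). Its replicates 0, 1 and 2 had 27.4, 9.79 and 7.19 CPM in Li-KO, against 20.3, 8.05 and 8.25 CPM in Ctl. Replicate 0 was thus well above the other libraries in both groups. Their edgeR adjusted p-values were 0.551 for Mthfd2 and 0.775 for Mthfd1l.

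Of 12 other histidine and histamine genes, 10 were tested and 1 passed by edgeR (10.0%). It was Slc38a3, a hepatocyte carrier of glutamine, histidine and asparagine, with 775, 646 and 442 CPM in Li-KO, against 2262, 1662 and 1856 CPM in Ctl. Its log2 fold change was -1.63 ± 0.23 (SE, adjusted p = 0.00606), and the lowest Ctl library was above 2 times the highest Li-KO library. Hnmt, which methylates histamine, had 49.8, 60.7 and 75.7 CPM in Li-KO, against 49.3, 36.7 and 45.3 CPM in Ctl (edgeR adjusted p = 0.103). Hdc, which makes histamine, was at 2.87 ± 1.24 CPM in Li-KO and 2.93 ± 0.475 CPM in Ctl (SD, n = 3 each, edgeR adjusted p = 0.969).

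**Figure D5:**
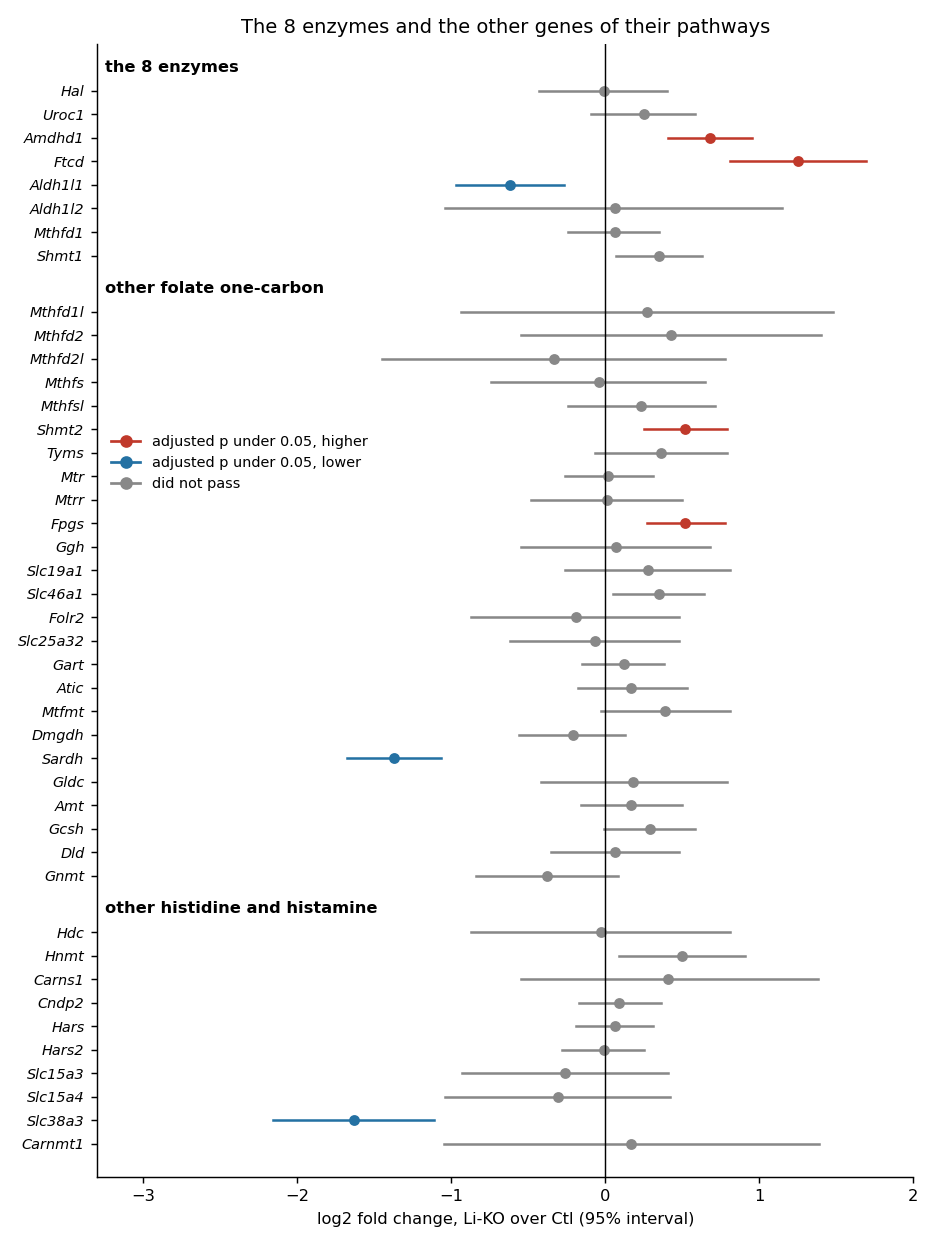
Log2 fold change of Li-KO over Ctl with its 95% interval (x) for the 8 enzymes and the tested genes of both pathway lists (y), coloured by the edgeR call. Ftcd at 1.25 is the highest value drawn and Slc38a3 at -1.63 the lowest.

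The genes whose level over the 6 libraries was most like that of an enzyme that passed were found by Pearson correlation of log2 CPM among 8272 protein-coding genes with a mean of at least 10 CPM. They were Cox14, Cyb5rl and Tmem208 for Ftcd (r = 0.9979, 0.9971 and 0.9968), Pcyox1, Cox4i1 and Nprl2 for Amdhd1 (r = 0.9982, 0.9980 and 0.9979), and Dbt, Acy1 and Mon2 for Aldh1l1 (r = 0.9938, 0.9935 and 0.9934). The 6 libraries fall into 2 genotypes, so these values mostly describe the gap between them. Dbt, a subunit gene of the branched-chain ketoacid dehydrogenase, was at 63.9 ± 10.6 CPM in Li-KO and 204 ± 39.9 CPM in Ctl, and Cox4i1, of cytochrome oxidase, at 488 ± 24.5 CPM in Li-KO and 326 ± 21.5 CPM in Ctl (SD, n = 3 each).

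Leaving out the 77 genes marked as skipped in some library, the libraries held 30132496 to 42782324 fragments assigned to genes in Li-KO and 35454667 to 42433779 in Ctl. The 7 hepatocyte markers measured, of 12 listed, summed to 23364 to 26552 CPM in Li-KO and 22569 to 30533 CPM in Ctl. Alb, Apob, Serpina1a and Cps1 are among the skipped genes and Tf was not found by symbol, so that sum lacks them. Sums for macrophage, endothelial, stellate, bile duct and white cell markers also overlapped between the groups. The bile duct sum was 152 CPM in Li-KO replicate 0, against 65.4 and 48.0 CPM in Li-KO replicates 1 and 2. Most of the 152 CPM was Spp1, at 144 CPM. Single markers of the hepatocyte, stellate and bile duct lists passed by edgeR, all lower in Li-KO, while the lists around them were mixed or mostly went the other way. In the bile duct list, 5 markers had a log2 fold change above 0 and 1 below (median 0.79). The stellate list had 4 above and 4 below 0, and the hepatocyte list 3 above and 4 below. The hepatocyte enzyme Tdo2 was at 526 ± 27.7 CPM in Li-KO and 2325 ± 697 CPM in Ctl, Rgs5 of the stellate list at 34.7 ± 11.0 CPM in Li-KO and 83.5 ± 19.6 CPM in Ctl, and Sox9 of the bile duct list at 2.82 ± 0.646 CPM in Li-KO and 14.7 ± 2.64 CPM in Ctl (SD, n = 3 each, edgeR adjusted p = 0.00179, 0.0199 and 0.00153). Red cell markers did not overlap, at 295 to 589 CPM in Li-KO and 739 to 810 CPM in Ctl, and 3 of the 5 passed by DESeq2, 1 by limma-voom and 0 by edgeR, with all 5 at an unadjusted p under 0.05. Hal is a marker of hepatocytes near the portal vein. Of 12 other periportal markers, 3 were higher and 3 lower by edgeR, together 50.0% against 12.0% of all genes tested. Sox9, also in the bile duct list, was among the lower. Log2 fold changes were above 0 in 9 of the 12 and below 0 in 3 (median 0.46). The periportal markers summed to 11926 to 15437 CPM in Li-KO and 8236 to 15209 CPM in Ctl. Of 11 pericentral markers tested, 1 was higher and 2 were lower, together 27.3%. Here log2 fold changes were below 0 in 8 and above 0 in 3 (median -0.32), with sums of 3876 to 6136 CPM in Li-KO and 5220 to 7249 CPM in Ctl. The part of these cell groups in the changes of Ftcd, Amdhd1 and Aldh1l1 was not tested.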

How the data were processed

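Total liver RNA was isolated on columns and made into stranded total RNA libraries, per the labels' protocols. STAR, Cufflinks, Cuffdiff and the build mm10 are named, without roles, per the submitters' processing notes, and their versions, the annotation, the strand setting and the handling of multi-mapping fragments were not found in the sources at hand. The file the authors deposited gives estimated counts per gene and library, not normalized, and FPKM that the authors scaled between libraries with Cuffdiff, per the file headers. In it, 77 genes are marked as skipped in some library and were left out; none of the 8 enzymes is among them. Libraries of its condition KO were taken as Li-KO and those of WT as Ctl, with the same numbers.

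Estimated counts were rounded, filtered with filterByExpr (minimum count 10, minimum total 15), scaled by TMM and tested with the quasi-likelihood test of edgeR 4.0.16 (R 4.3.3), group as the only term, with Benjamini-Hochberg adjustment over 16533 genes and a threshold of 0.05. The 95% intervals use the SE from the F statistic. Gene positions and exonic lengths are from GENCODE M21. Alternatives used limma 3.58.1, DESeq2 1.42.0, other scalings and filters, and fits without each library. The fit was tested on simulated data. The ratios between enzymes, and counts per exonic base in place of FPKM for them, were added after seeing the data.

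The enzymes and gene lists were chosen with earlier results of these data known. The genes named are the 8 enzymes, Klf15, pathway genes that passed, Mthfd1l, Shmt2, Mthfd2, Mthfs, Hnmt and Hdc whatever their p, protein-coding genes tested within 0.5 Mb of Klf15, and the 3 most similar genes per enzyme that passed; genes overlapping an enzyme, other gene types beside Klf15 and single cell type markers were added after their values were seen. Of the folate list, 2 genes are not reported here, and the counts of that list leave them out.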

Additional observations from a re-analysis of the deposited data

How the results depend on the processing

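Ftcd kept its call in all 17 alternatives (log2 fold change 1.15 to 1.45) and Amdhd1 in all but 1, and 0.64 to 0.73 was its range without a library. Aldh1l1 stayed lower, at -0.68 to -0.54 without a library, but lost its call in 5 of those 6 fits and with limma on log2(FPKM + 1), log2(FPKM + 0.1) and log2(FPKM + 1) of all genes above 0 (-0.63, -0.64 and -0.63; the cause was not tested). So the number of enzymes lower was 0 or 1 and the number higher 1 or 2. Uroc1 (0.18 to 0.34), Shmt1 (0.26 to 0.43) and Mthfd1 (0.00 to 0.13) did not pass without any library, and Hal (-0.14 to 0.13) and Aldh1l2 (-0.27 to 0.33) changed sign, as did Mthfs (-0.47 to 0.18), Hdc (-0.31 to 0.28), Mthfd1l (-0.50 to 0.85), Mthfd2 (-0.13 to 0.74) and Zxdc (-0.09 to 0.13), which was also at -0.05 with limma on FPKM. Over all genes, calls higher and lower were 198 to 1102 and 234 to 1447 without a library, 1603 and 1555 with DESeq2, 577 and 595 with log2(FPKM + 1), 631 and 644 with log2(FPKM + 0.1), and 393 and 415 with log2(FPKM + 1) of all genes above 0. With the replicate block, calls were 956 and 1015 and no call among the 8 enzymes changed, while Iqsec1 lost its call (edgeR adjusted p = 0.0592). Libraries with the same number were not treated as pairs, since the labels state no shared batch for a replicate number. Their deviations correlated at 0.02, 0.08 and 0.07 over all genes tested. Such correlations cannot exclude a shared batch, and Mthfd1l was highest in replicate 0 of both groups. The low counts of Aldh1l2 limit its precision.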
